A study of Mus musculus with 28 samples.

Results

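The 6 genes described here encode the Fc gamma receptors of the mouse and the chain through which the activating members signal: the activating receptors Fcgr1, Fcgr3 and Fcgr4, the inhibitory receptor Fcgr2b, the common gamma chain Fcer1g and the kinase Syk. They were taken by name from both deposited count tables, which list 55341 genes in common, and 6 of 6 were found and passed the filter on low counts in each table. Bulk RNA-seq had been run on whole subcutaneous AB1-HA tumors, a mesothelioma line carrying the influenza hemagglutinin antigen, grown in BALB/c.AusBP mice (females of 8 to 10 weeks per the study's methods), inoculated in 1 flank. Treatment began at a tumor size of 20 to 25 mm2, and every tumor was collected 7 days later. The groups were PBS (n = 4), immune checkpoint blockade (ICB, n = 5), 5-FU (n = 5), cisplatin (n = 4), 5-FU+ICB (n = 5) and cisplatin+ICB (n = 5), 28 tumors in all. ICB was 100 µg of anti-CTLA-4 given 1 time and 100 µg of anti-PD-L1 given 3 times into the peritoneum, 5-FU was 75 mg/kg into the tail vein, and cisplatin was 6 mg/kg into the peritoneum. The same PBS and ICB tumors stand in both tables, so the comparisons below share control samples.

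Fc gamma receptors bind the constant part of IgG on the surface of myeloid cells, natural killer cells and, for Fcgr2b, B cells. Fcgr1 encodes the high affinity receptor FcγRI, Fcgr3 encodes FcγRIII and Fcgr4 encodes FcγRIV, and each reaches the cell surface together with the gamma chain, whose activation motif (ITAM) is phosphorylated by Src family kinases and then docks Syk. Fcgr2b carries an inhibitory motif (ITIM) in its own tail and recruits the phosphatase SHIP1, the product of Inpp5d, so the balance of activating to inhibitory receptor is a usual measure of how readily a cell answers antibody. In tumors, macrophages are a main carrier of these receptors, and in mice they take part in the removal of cells to which antibodies have bound.

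In GENCODE M21 on GRCm38, 4 of the genes lie close together on chromosome 1: Fcgr2b (170958617 to 170976547, minus strand), Fcgr4 (171018920 to 171029761, plus strand), Fcgr3 (171051174 to 171064935, minus strand) and Fcer1g (171229572 to 171234365, minus strand). Fcgr1 lies on chromosome 3 (96282909 to 96293969, minus strand) and Syk on chromosome 13 (52583173 to 52648792, plus strand). All are protein coding. The transcripts of Fcgr3 share 13.4% of their distinct 31-base words with transcripts of other genes, all of them with Fcgr2b, and those of Fcgr2b share 8.15%. Reads from these stretches had to be divided between genes by the estimation, so the levels of Fcgr3 and Fcgr2b, and their ratio, are less certain than those of Fcgr1 and Fcer1g, which share 0% of their words.

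The bases before the start of 3 receptor genes are shown because the fitted changes of Fcgr1 and Fcgr4 after ICB are the smallest and the largest among the receptors and Fcgr2b is the inhibitory one. They are the 250 bases before the gene start in RefSeq on GRCm38.p6, 5′ to 3′ on the strand of the gene, for Fcgr1 (chr3:96293970-96294219, minus strand), Fcgr4 (chr1:171018676-171018925, plus strand) and Fcgr2b (chr1:170976072-170976321, minus strand). Capitals mark matches, on either strand, to 3 motifs: the interferon gamma-activated site TTCNNNGAA, the PU box GAGGAA bound by the myeloid factor PU.1, and the interferon-stimulated response element, read as GAAA, any 2 bases and GAAA. The matches do not overlap each other.
Fcgr1: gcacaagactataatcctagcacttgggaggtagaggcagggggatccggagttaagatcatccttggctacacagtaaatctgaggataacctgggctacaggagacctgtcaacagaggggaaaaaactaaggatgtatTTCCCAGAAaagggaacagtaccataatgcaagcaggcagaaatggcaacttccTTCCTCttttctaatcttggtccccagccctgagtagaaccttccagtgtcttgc
Fcgr4: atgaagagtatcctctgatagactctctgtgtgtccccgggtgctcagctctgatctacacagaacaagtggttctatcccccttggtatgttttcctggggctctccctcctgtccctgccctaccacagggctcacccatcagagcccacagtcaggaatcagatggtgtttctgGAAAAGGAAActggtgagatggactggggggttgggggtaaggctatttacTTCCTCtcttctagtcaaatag
Fcgr2b: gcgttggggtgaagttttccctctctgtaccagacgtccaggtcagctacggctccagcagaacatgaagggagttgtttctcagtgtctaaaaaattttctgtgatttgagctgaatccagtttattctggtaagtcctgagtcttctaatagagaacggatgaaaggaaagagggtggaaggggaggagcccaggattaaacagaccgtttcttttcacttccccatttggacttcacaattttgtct

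The Fcgr1 window held TTCCCAGAA, a match to the interferon gamma-activated site, from -109 to -101, and a PU box on the opposite strand from -55 to -50, counted from the gene start. The Fcgr4 window held GAAAAGGAAA, a match to the interferon-stimulated response element, from -73 to -64, and a PU box on the opposite strand from -22 to -17. No match to the 3 motifs was found in the Fcgr2b window. By GENCODE M21 that window lies inside the gene, whose start on the minus strand is at 170976547, and the bases before that start were not read. The Fcgr4 window runs slightly past the GENCODE start at 171018920. Among 32851 promoter windows of the same length, 7.02% held the interferon gamma-activated site, 23.3% the PU box and 2.98% the interferon-stimulated response element. These matches describe letters only.

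Total counts ran from 23541733 to 33950805 per tumor, so a count of 3 stands for 0.0884 to 0.127 CPM (a gene's count relative to the library total, on the usual CPM scale), and the lowest member count was 358 (Fcgr4 in cisplatin replicate 3). Levels below are CPM after TMM scaling over the 28 tumors. In bulk tumor RNA, fewer cells of a type and less RNA per cell cannot be told apart. Of the mesothelial markers, Msln, which encodes mesothelin, was present (271 to 358 CPM in PBS), whereas Wt1, Upk1b, Upk3b, Lrrn4 and Krt19 were each below 0.4 CPM in all PBS tumors. Some tumors stood apart. Cisplatin+ICB replicate 1 had the lowest Csf1r (54.3 CPM) and Inpp5d (7.42 CPM) of all tumors with the highest Msln (654 CPM). 5-FU+ICB replicate 2 had 105 CPM of the leukocyte gene Ptprc, against 342 to 721 CPM in the rest of its group. 5-FU+ICB replicate 5 had 0.499 CPM of Msln and 16.1% mitochondrial counts, against at most 6.80% in any other tumor. Calls of the members and counts of the pathway lists in these groups against PBS are given with and without them.

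Per length, Fcer1g had the highest level of the 6 genes in PBS tumors, at 131 ± 33.3 CPM per kilobase of exon (SD, n = 4). Fcgr3 followed at 58.0 ± 34.4, then Fcgr2b at 25.4 ± 8.86, Fcgr1 at 17.1 ± 4.64, Fcgr4 at 17.0 ± 5.70 and Syk at 4.23 ± 0.346 CPM per kilobase. Fcgr1 and Fcgr4, neighbours in this order, did not differ beyond their spread. In ICB tumors the order was Fcer1g (376 ± 111), Fcgr3 (254 ± 72.7), Fcgr4 (138 ± 29.4), Fcgr2b (112 ± 38.8), Fcgr1 (46.8 ± 7.38) and Syk (17.7 ± 6.03, all SD, n = 5). Fcgr4 thus stood above Fcgr1 and Fcgr2b by this measure after ICB, although its mean lay within 1 SD of that of Fcgr2b. Exon length here is the union over all annotated transcripts, which lowers the value of genes with rarely used exons.

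The first question was how checkpoint blockade alone changed the receptors. All 6 genes were higher in ICB than in PBS tumors under TMM scaling, with log2 fold changes from 1.46 to 3.03, and 6 of 6 passed the call used throughout (adjusted p under 0.05 and a log2 fold change over 0.5 in size, edgeR quasi-likelihood test), although Fcgr1 and Fcer1g turn below 0 when levels are scaled to Ptprc or to macrophage genes, as described further on. Over all genes, 19% were called higher in this comparison. The tumors of the 2 groups did not overlap for any member, whereas 15.8% of all genes showed such separation upwards. The median log2 fold change was 2.11 over the members and -0.03 over all genes tested. Calls were kept for all 6 genes in each of the 9 fits that left out 1 tumor, where 14.4% to 20% of all genes were called higher. The mitochondrial share of counts moved with this contrast, from 1.53% to 2.37% in PBS tumors and from 2.69% to 4.82% in ICB tumors without overlap, and its part in the member changes was not tested.

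**Figure D1:**
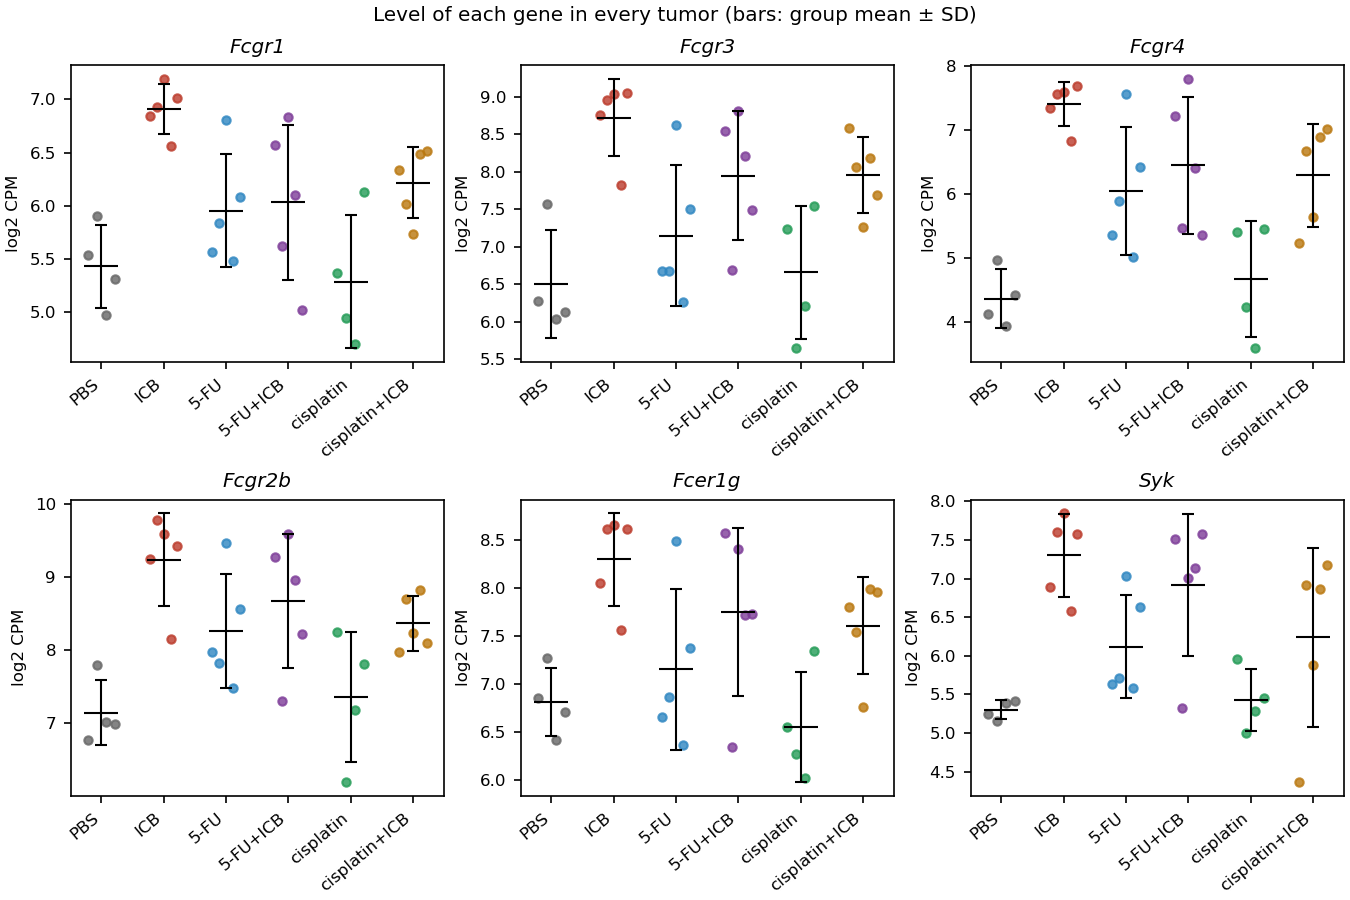
Log2 CPM (y axis) of the 6 genes in each of the 28 tumors by treatment group, with 1 point per tumor and bars for the group mean ± SD. For each gene the 5 ICB tumors lie above the 4 PBS tumors, with Fcgr4 at 114 to 207 CPM against 15.2 to 31.4 CPM.

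Fcgr4, which binds IgG2a and IgG2b complexes, changed most. Its level was 17.5, 31.4, 15.2 and 21.4 CPM in the PBS tumors and 163, 188, 194, 114 and 207 CPM in the ICB tumors. The lowest ICB tumor was thus well above the highest PBS tumor. The log2 fold change was 3.03 (SE 0.569, adjusted p = 0.000949), an 8.15-fold rise.

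Fcgr3, the receptor also carried by natural killer cells, stood at 77.3, 190, 65.5 and 69.8 CPM in PBS and at 431, 497, 523, 226 and 527 CPM in ICB tumors. PBS replicate 2 was far above the other PBS tumors and ICB replicate 4 far below the other ICB tumors. The log2 fold change was 2.13 (SE 0.535, adjusted p = 0.00512).

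Fcgr1 had 46.3, 59.7, 31.2 and 39.7 CPM in PBS and 115, 121, 146, 94.5 and 129 CPM in ICB tumors. Its change was the smallest of the receptors, with a log2 fold change of 1.46 (SE 0.344, adjusted p = 0.00337), or 2.75-fold.

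Fcgr2b, the inhibitory receptor, had 110, 223, 130 and 127 CPM in PBS and 611, 877, 768, 284 and 691 CPM in ICB tumors. It rose 4.43-fold (log2 fold change 2.15, SE 0.487, adjusted p = 0.00274), close to Fcgr3. Again PBS replicate 2 was the highest control and ICB replicate 4 the lowest treated tumor.

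Fcer1g, the gamma chain, was at 116, 154, 85.1 and 104 CPM in PBS and at 265, 393, 405, 189 and 392 CPM in ICB tumors. Its log2 fold change of 1.53 (SE 0.455, adjusted p = 0.0131) was close to that of Fcgr1. Syk, the kinase that docks on the phosphorylated gamma chain, varied little among PBS tumors (38.1, 35.7, 42.0 and 42.5 CPM) and reached 119, 194, 231, 95.9 and 191 CPM in ICB tumors. It rose 4.28-fold (log2 fold change 2.10, SE 0.415, adjusted p = 0.00126).

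Chemotherapy alone was compared next. The mitochondrial share was 2.72% to 6.80% in 5-FU tumors, above every PBS tumor, and 1.72% to 2.76% in cisplatin tumors, and its part in the results was not tested. After 5-FU, Fcgr4 was the only member called (log2 fold change 1.93, SE 0.541, adjusted p = 0.0176), against 9.98% of all genes called higher. Its level was 41.0, 59.0, 189, 32.3 and 85.8 CPM, and every 5-FU tumor lay above every PBS tumor. The call was lost without PBS replicate 1 (log2 fold change 1.85, adjusted p = 0.0591) and without 5-FU replicate 3, the highest tumor (1.35, adjusted p = 0.0544), fits in which the share of all genes called higher was 3.43% and 5.94%. Syk, at 49.4, 52.3, 131, 47.9 and 99.0 CPM, also did not overlap PBS, but its log2 fold change of 0.96 (SE 0.398) had an adjusted p of 0.0807. The 2 of 6 members without overlap compare with 9.27% of all genes. Fcgr2b (1.24, SE 0.470, adjusted p = 0.0579) missed the threshold and was called without 5-FU replicate 2 (1.37, adjusted p = 0.0493) or replicate 4 (1.42, adjusted p = 0.0434), with 10.3% and 9.26% of all genes called higher. Fcgr1, Fcgr3 and Fcer1g had log2 fold changes of 0.56, 0.75 and 0.53 with adjusted p from 0.211 to 0.378. DESeq2 called Fcgr2b, Fcgr4 and Syk, and 13.6% of the genes it tested as higher (4856 of 19475 in either direction).

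After cisplatin, 0 of 6 members were called by edgeR or DESeq2, 0 had an unadjusted p under 0.05, and 0% of all genes were called by edgeR and 0.0114% by DESeq2. The log2 fold changes lay between -0.20 (Fcer1g) and 0.45 (Fcgr4), each with an adjusted p of 1.00. The 95% interval for Fcgr4 ran from -0.46 to 1.37, and that for Fcgr1 from -0.68 to 0.53, so a change of the size seen for these genes after ICB lay outside both. Cisplatin tumors were uneven: Fcgr4 was 42.3, 18.8, 12.0 and 43.5 CPM, and Fcgr2b was 305, 73.1, 145 and 225 CPM. All members overlapped PBS, where 1.53% of all genes were higher without overlap.

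Chemotherapy combined with ICB was then compared with PBS. Here the mitochondrial share, 2.33% to 16.1% in 5-FU+ICB and 1.03% to 3.99% in cisplatin+ICB, overlapped PBS, and its part was not tested. The overlap came from 5-FU+ICB replicate 2 (2.33%) and cisplatin+ICB replicate 1 (1.03%) alone. All other tumors of these groups, at 3.23% or more, lay above every PBS tumor (at most 2.37%). In 5-FU+ICB tumors 4 of 6 members were called higher, against 21.9% of all genes: Fcgr4 (log2 fold change 2.35, SE 0.551, adjusted p = 0.00340), Syk (1.83, SE 0.410, adjusted p = 0.00268), Fcgr2b (1.69, SE 0.478, adjusted p = 0.00944) and Fcgr3 (1.47, SE 0.521, adjusted p = 0.0293). Fcer1g (1.10, adjusted p = 0.0528) and Fcgr1 (0.71, adjusted p = 0.0930) did not pass. DESeq2 called 5 of 6, Fcer1g included (adjusted p = 0.0283), and 20.7% of the genes it tested as higher. Only Fcgr4 was free of overlap with PBS, where 10.9% of all genes were so separated upwards. Its tumors fell far apart, at 149, 44.2, 223, 85.0 and 41.0 CPM.

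5-FU+ICB replicate 2 had the lowest level of its group for Fcgr2b, Fcgr3, Fcer1g and Syk, with 40.2 CPM of Syk, a value inside the PBS range, against 128 to 191 CPM in the other 4 tumors of the group. 5-FU+ICB replicate 5 had the lowest Fcgr1 of its group (32.4 CPM) beside the highest Syk (191 CPM). Without replicate 2, Fcer1g was called (log2 fold change 1.33, adjusted p = 0.0117), beside 25.1% of all genes called higher. Without replicate 5, Fcgr1 was called (0.89, adjusted p = 0.0302), beside 18.8% of all genes. The call of Fcgr3 was lost without PBS replicate 1 (1.36, adjusted p = 0.0807), PBS replicate 3 (1.28, adjusted p = 0.0789), PBS replicate 4 (1.31, adjusted p = 0.0778), 5-FU+ICB replicate 1 (1.36, adjusted p = 0.0604) and 5-FU+ICB replicate 3 (1.24, adjusted p = 0.0701). In these fits 17.4%, 20.3%, 19.7%, 19.6% and 21.3% of all genes, in that order, were called higher. The calls of Fcgr4, Syk and Fcgr2b were kept in 9 of 9 fits without 1 tumor.

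In cisplatin+ICB tumors Fcgr4 alone was called (log2 fold change 2.05, SE 0.427, adjusted p = 0.0168), against 4.7% of all genes called higher, at 37.5, 101, 50.0, 119 and 129 CPM. The other 5 members had log2 fold changes from 0.79 to 1.38 with adjusted p from 0.0593 to 0.114, and DESeq2 called 5 of 6, all but Fcer1g, beside 8.7% of the genes it tested called higher (2156 of 21321 in either direction). Fcgr4 and Fcgr2b did not overlap PBS, where 3.43% of all genes were higher without overlap. Fcgr2b was 251, 416, 301, 454 and 275 CPM in this group.

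The count in this comparison, over the members and over all genes, turned on single tumors. Cisplatin+ICB replicate 1 had 20.5 CPM of Syk, below every other tumor of the series, but 383 CPM of Fcgr3, the highest of its group. Without it, 5 of 6 members were called: Syk (log2 fold change 1.57, adjusted p = 0.00221), Fcgr2b (1.36, adjusted p = 0.0158), Fcgr3 (1.24, adjusted p = 0.0360) and Fcgr1 (0.82, adjusted p = 0.0428) besides Fcgr4. Over all genes 6277 of 17772 were then called, 18.2% of those tested as higher, against 1087 of 17819 with that tumor. Without cisplatin+ICB replicate 3, Fcgr3 (1.52, adjusted p = 0.0392) and Fcer1g (1.00, adjusted p = 0.0479) were called as well, and without PBS replicate 2, Fcgr3 was (1.88, adjusted p = 0.0246), with 6.48% and 3.21% of all genes called higher. The call of Fcgr4 was lost without PBS replicate 1 (1.96, adjusted p = 0.0780), PBS replicate 3 (1.91, adjusted p = 0.0739) or PBS replicate 4 (2.04, adjusted p = 0.0634), fits in which 0% of all genes were called.

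**Figure D2:**
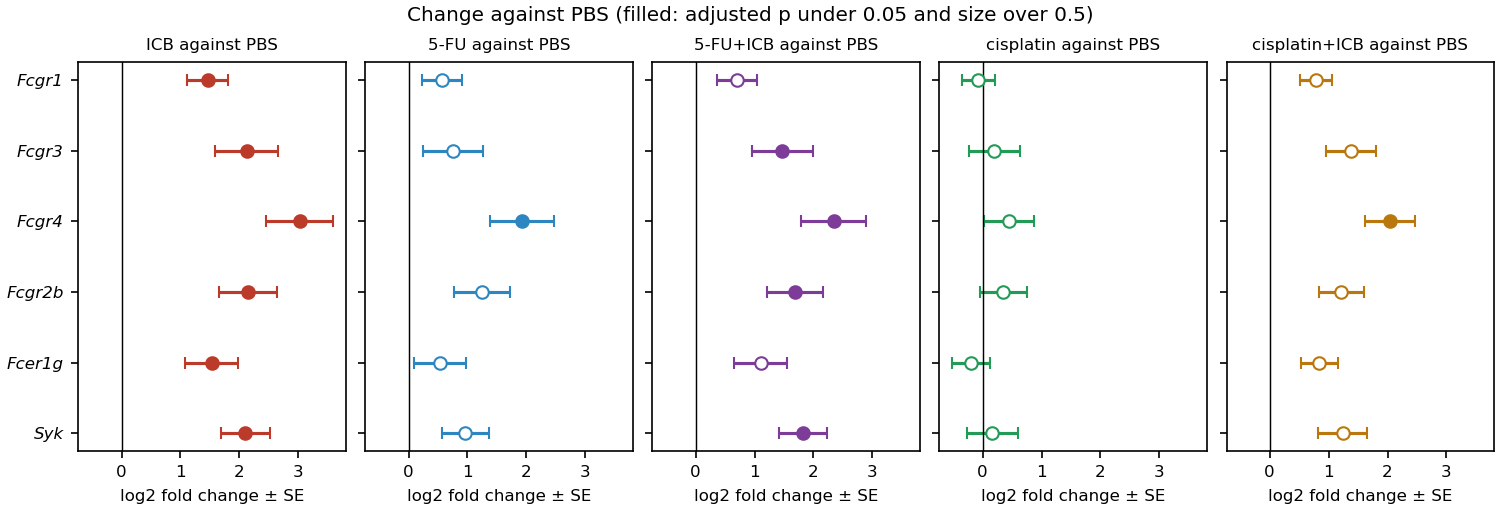
Log2 fold change ± SE (x axis) of each gene against PBS in the 5 treated groups, under TMM scaling, with filled points for calls. Fcgr4 has the largest change in every panel, from 0.45 after cisplatin to 3.03 after ICB, while Fcgr1 and Fcer1g have the smallest after ICB and turn below 0 there when levels are scaled to Ptprc or macrophage genes.

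The combinations were also set against their single components. Against ICB alone, 0 of 6 members were called by edgeR or DESeq2 in 5-FU+ICB (0.229% of all genes called by edgeR and 1.68% by DESeq2) and 0 of 6 in cisplatin+ICB (0% and 0.26% of all genes). In 5-FU+ICB all 6 log2 differences from ICB were negative, from -0.76 for Fcgr1 (95% interval -1.42 to -0.09) to -0.27 for Syk (-1.05 to 0.51), and 1 of 6 had an unadjusted p under 0.05. In cisplatin+ICB they ran from -0.98 for Fcgr4 (95% interval -1.80 to -0.17) to -0.67 for Fcgr1 (-1.22 to -0.13), and 5 of 6 had an unadjusted p under 0.05. Fcgr1 was the only member whose cisplatin+ICB tumors (53.2 to 91.3 CPM) all lay below the ICB tumors (94.5 to 146 CPM), against 1.29% of all genes. No member was lower without overlap in 5-FU+ICB, against 1.67% of all genes.

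Against chemotherapy alone, 5-FU+ICB again gave 0 of 6 calls with edgeR and DESeq2 (0.0112% and 2.97% of all genes called), with log2 fold changes from 0.14 (Fcgr1) to 0.87 (Syk, adjusted p = 0.256) and 1 of 6 at an unadjusted p under 0.05. Without 5-FU+ICB replicate 2, Syk was called (1.11, adjusted p = 0.0313), in a fit that called 1948 of 17842 genes, 8.09% of those tested as higher, against 2 of 17916 with that tumor. Cisplatin+ICB against cisplatin gave 0 of 6 calls with edgeR (0% of all genes) but 6 of 6 members at an unadjusted p under 0.05, and DESeq2 called Fcgr1, Fcgr4 and Fcer1g beside 3.83% of the genes it tested called higher (783 of 18622 in either direction). Here the log2 fold changes ran from 0.87 (Fcgr1 and Fcgr2b) to 1.59 (Fcgr4, SE 0.419, adjusted p = 0.0984). Without cisplatin+ICB replicate 1, Fcgr4 (1.83, adjusted p = 0.0131) and Syk (1.38, adjusted p = 0.0118) were called, beside 2114 of 17772 genes (8.31% higher). Without cisplatin+ICB replicate 3, Fcgr4 (1.74, adjusted p = 0.0379) and Fcer1g (1.20, adjusted p = 0.0418) were, beside 536 of 17659 genes (2.33% higher). No member was higher without overlap in either of these comparisons, against 0.91% and 1.18% of all genes.

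Whether ICB acted differently with chemotherapy than without was tested as an interaction. With 5-FU, all 6 terms were negative, that is, the combination lay below the sum of the separate log2 changes, by 2.61 for Fcgr4 (-2.61, SE 0.720, adjusted p = 0.0668), by 1.70 for Fcgr2b (-1.70, adjusted p = 0.117) and by 0.95 for Fcer1g (-0.95, adjusted p = 0.345). No term was called by edgeR, against 0.0893% of all genes, 4 of 6 had an unadjusted p under 0.05, and DESeq2 called Fcgr1 and Fcgr4. DESeq2 called 1542 of 16114 genes for this term, 4.19% of those tested as lower. In edgeR fits without 1 tumor 0 members were called, while calls over all genes ran from 0 to 1698, the latter without PBS replicate 3. With cisplatin the terms ran from -1.44 (Fcgr4) to -0.49 (Fcer1g), 0 of 6 were called by edgeR or DESeq2, 2 of 6 had an unadjusted p under 0.05, and 0% of all genes were called by edgeR and 0.00285% by DESeq2. Scaled to Ptprc or macrophage genes, several of these terms turn above 0. On these 2 scales the median term over all genes was 1.26 and 1.43 with 5-FU and 0.96 and 0.98 with cisplatin. Each member term that turned lay below it.

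The balance of activating to inhibitory receptor was measured in each tumor as the log2 ratio of the receptor's count to the Fcgr2b count. In bulk RNA this ratio pools all cells that carry each receptor, so it is not the balance within a cell type. The ratio is not corrected for length, so its differences between tumors are read, not its level. After ICB the ratio moved up for Fcgr4 and down for Fcgr1, while that of Fcgr3 stayed nearly level. None of 27 tests (3 receptors in 9 comparisons, exact permutation test, two-sided) passed after Benjamini-Hochberg adjustment, and 6 had an unadjusted p under 0.05. The smallest p that these group sizes allow is 0.00794, or 0.0286 for cisplatin against PBS. Tests at that floor, Fcgr4 in ICB against PBS and Fcgr3 in 5-FU+ICB against 5-FU, had an adjusted p of 0.107. Full separation in a single comparison thus could not pass, and the lack of a pass does not show an unchanged balance.

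The Fcgr4 to Fcgr2b log2 ratio was -2.65, -2.83, -3.10 and -2.56 in PBS tumors and -1.91, -2.22, -1.99, -1.32 and -1.74 in ICB tumors. Every ICB tumor thus had more Fcgr4 per Fcgr2b than any PBS tumor. The difference was 0.95 (1.93-fold, 5 of 5 ICB tumors above PBS, exact permutation p = 0.00794, adjusted p = 0.107), and that p is the smallest these group sizes allow. The ratio was also above PBS in 5-FU (0.57, exact permutation p = 0.0397), 5-FU+ICB (0.56, exact permutation p = 0.0873) and cisplatin+ICB (0.71, exact permutation p = 0.0794), each overlapping PBS and each with an adjusted p of 0.214 or 0.236, and moved by 0.09 in cisplatin (exact permutation p = 0.857, adjusted p = 0.898).

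The Fcgr1 to Fcgr2b log2 ratio was -1.24, -1.90, -2.06 and -1.67 in PBS and -2.41, -2.85, -2.39, -1.59 and -2.42 in ICB tumors, where only ICB replicate 4 lay within the PBS range. The group means differed by -0.61 (exact permutation p = 0.0635, adjusted p = 0.214). Its difference from PBS was -0.59 in 5-FU (exact permutation p = 0.0476) and -0.92 in 5-FU+ICB (exact permutation p = 0.0317), with an adjusted p of 0.214 for each. 5-FU+ICB replicate 5 had the lowest ratio of all tumors (-3.20), and the 5-FU+ICB difference ran from -1.16 to -0.77 without 1 tumor. The part of B cells, which also carry Fcgr2b, was not tested. In cisplatin and cisplatin+ICB the differences were -0.36 and -0.43 (exact permutation p = 0.371 and 0.190, adjusted p = 0.629 and 0.429).

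The Fcgr3 to Fcgr2b log2 ratio averaged -0.65 ± 0.344 in PBS, -0.52 ± 0.189 in ICB, -1.12 ± 0.175 in 5-FU and -0.73 ± 0.0627 in 5-FU+ICB (SD). The 5-FU tumors (-1.30 to -0.85) all lay below the 5-FU+ICB tumors (-0.79 to -0.62), a difference of 0.39 (5 of 5 tumors, exact permutation p = 0.00794, adjusted p = 0.107). The difference of 5-FU from PBS was -0.47 (exact permutation p = 0.0317, adjusted p = 0.214). In cisplatin+ICB replicate 1 this ratio was 0.61, above every other tumor, and without it the difference of cisplatin+ICB from PBS went from 0.23 to -0.02. The words shared between Fcgr3 and Fcgr2b bear on this ratio, and their part in it was not tested.

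Averaged over the 3 receptors, the log2 ratio was -1.72 ± 0.243 in PBS, -1.56 ± 0.318 in ICB, -1.88 ± 0.155 in 5-FU, -1.83 ± 0.559 in cisplatin, -1.87 ± 0.332 in 5-FU+ICB and -1.55 ± 0.399 in cisplatin+ICB (SD). The groups overlapped in all 9 comparisons. The Fcgr4 and Fcgr1 ratios had differences of opposite sign from PBS in ICB, 5-FU, cisplatin, 5-FU+ICB and cisplatin+ICB, and both enter this mean. In cisplatin the Fcgr4 difference was only 0.09 and changed sign without 1 tumor (-0.16 to 0.39).

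**Figure D3:**
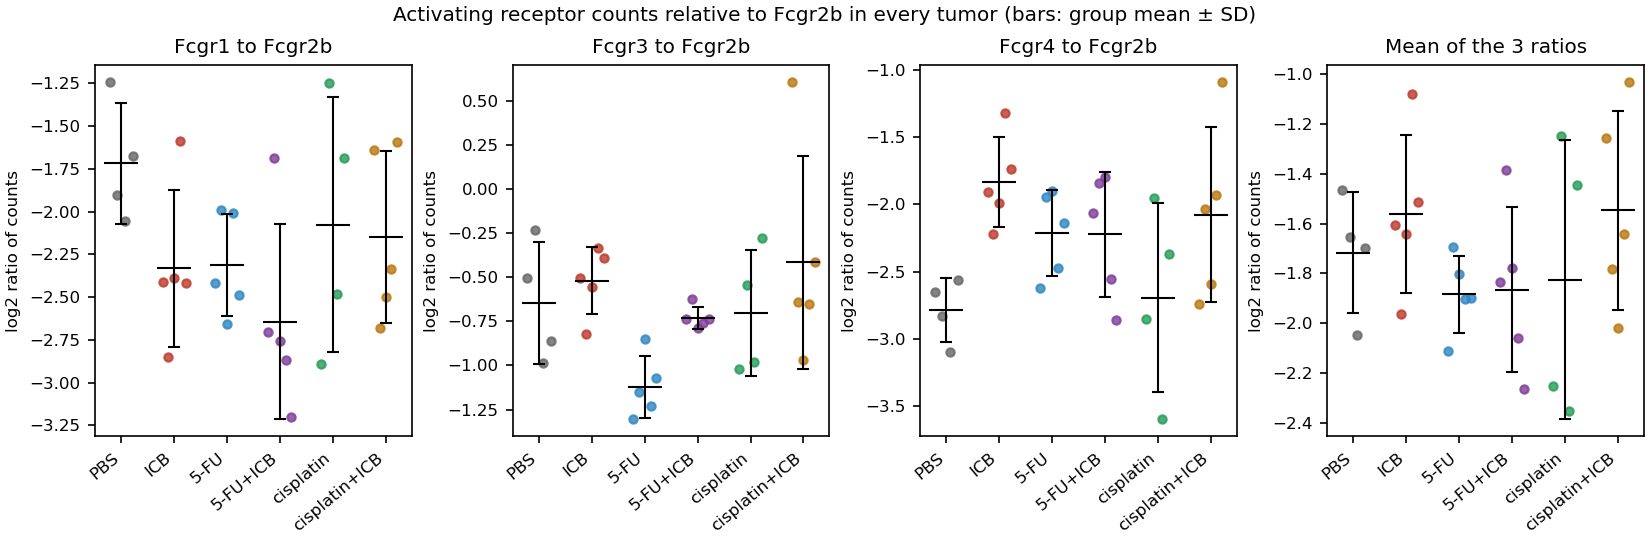
Log2 ratio of the count of each activating receptor to that of Fcgr2b (y axis) in each tumor by group, with bars for the group mean ± SD, and the mean of the 3 ratios in the last panel. The ICB tumors lie above PBS for Fcgr4 (-2.22 to -1.32 against -3.10 to -2.56), mostly below PBS for Fcgr1, and overlap PBS for the mean of the 3.

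Genes of other steps of the pathway were counted in the same fits. Each count below stands against the share of all genes called higher in its own comparison, which was 19% after ICB, 9.98% after 5-FU, 0% after cisplatin, 21.9% after 5-FU+ICB and 4.7% after cisplatin+ICB. A list of 13 genes held signaling adaptors, receptors that pair with them and related myeloid receptors, among them Pirb, which encodes an inhibitory receptor with ITIMs, and Clec7a, whose product signals through its own tail. Of these, 6 were called higher in ICB against PBS and 0 lower. Pirb (log2 fold change 1.37) and Clec7a (2.89) were among the 6. They also included Clec4e, which encodes the C-type lectin Mincle (log2 fold change 4.62, SE 0.784, adjusted p = 0.000541; 74.6 ± 38.2 against 2.99 ± 2.48 CPM), and its neighbour Clec4d (3.46, adjusted p = 0.000524). Tyrobp, which encodes the ITAM adaptor DAP12, was not called (0.99, SE 0.430, adjusted p = 0.0726). The list's median was 1.37, against -0.03 over all genes. After 5-FU, cisplatin, 5-FU+ICB and cisplatin+ICB, 1, 0, 6 and 5 of the 13 were called higher (6 and 1 lower without 5-FU+ICB replicate 2, 5 without its replicate 5, and 6 without cisplatin+ICB replicate 1), and Oscar was called lower after 5-FU (log2 fold change -3.47, SE 0.946, adjusted p = 0.0157), where 13% of all genes were called lower.

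Among 7 Src family kinase genes, 5 were called higher after ICB, including the myeloid kinases Fgr (log2 fold change 1.89, adjusted p = 0.00490) and Lyn (1.38, adjusted p = 0.00444), and Yes1 was called lower (-0.68, adjusted p = 0.00429), against 18.8% of all genes called lower. In 5-FU+ICB 5 of 7 were higher, and 1 in each of 5-FU and cisplatin+ICB, against 21.9%, 9.98% and 4.7% of all genes. The count for 5-FU+ICB was 5 without replicate 2 and 4 without replicate 5, and that for cisplatin+ICB was 5 without replicate 1. Of 20 genes for proteins that act after Syk, 16 were called higher after ICB with a list median of 1.54, 14 after 5-FU+ICB, 2 after 5-FU, 1 after cisplatin+ICB and 0 after cisplatin. Without cisplatin+ICB replicate 1 the count for that group was 14 of 20, and for 5-FU+ICB it was 15 without replicate 2 and 14 without replicate 5. Examples after ICB were the exchange factor gene Vav1 (1.93, SE 0.370, adjusted p = 0.00105) and the phospholipase gene Plcg2 (1.71, SE 0.316, adjusted p = 0.000878). The 2 of 20 after 5-FU and the 1 of 20 after cisplatin+ICB were near the 9.98% and 4.7% of all genes called higher there. The counts without a tumor stand beside 25.1%, 18.8% and 18.2% of all genes called higher without 5-FU+ICB replicate 2, 5-FU+ICB replicate 5 and cisplatin+ICB replicate 1.

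On the inhibitory side, Inpp5d, which encodes the SHIP1 phosphatase used by Fcgr2b, rose after ICB (log2 fold change 1.97, SE 0.365, adjusted p = 0.000878; 143 ± 42.3 against 37.6 ± 17.4 CPM). Ptpn6, which encodes SHP-1, rose too (1.21, SE 0.233, adjusted p = 0.00110), and the adaptor gene Dok2 also rose (1.35, adjusted p = 0.0139). Those were 3 of 7 genes in that list. After 5-FU, Inpp5d was called higher (1.15, adjusted p = 0.0260) and Dok1 (54.4 ± 6.78 against 99.1 ± 43.4 CPM) and Dok3 (18.1 ± 2.07 against 36.3 ± 4.63 CPM) lower, beside the 13% of all genes called lower there. After 5-FU+ICB 3 of the 7 were called higher (Inpp5d, Ptpn6 and Dok2) and Dok3 lower (-0.77, adjusted p = 0.00281), against 18.7% of all genes called lower, and these counts were 3 and 1 without replicate 2 and without replicate 5. After cisplatin+ICB Dok2 alone was called (1.64, adjusted p = 0.0393), and 3 of 7 were without replicate 1. After cisplatin 0 of 7 were called by edgeR or DESeq2, with 0 at an unadjusted p under 0.05.

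The phagocyte oxidase, which makes reactive oxygen once such receptors are engaged, had 4 of 5 subunit genes called higher after ICB. Cybb had the largest change, from 71.1 ± 2.09 to 1014 ± 427 CPM (log2 fold change 3.85, SE 0.657, adjusted p = 0.000555), and Ncf1 rose as well (2.18, adjusted p = 0.000725). After 5-FU Cybb alone was called higher (1.80, adjusted p = 0.0349), and after cisplatin 0 of 5 were by edgeR or DESeq2, with 0 at an unadjusted p under 0.05. After 5-FU+ICB and cisplatin+ICB 3 of 5 were called in each, and 4 without 5-FU+ICB replicate 2, 3 without its replicate 5 and 3 without cisplatin+ICB replicate 1.

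Among 12 genes for interferon gamma, cytokines and myeloid regulators, 9 were called higher after ICB. Ifng itself was low in PBS (0.343 ± 0.0952 CPM) and reached 13.1 ± 3.03 CPM (log2 fold change 5.26, SE 0.566, adjusted p = 2.44e-05). Spi1, which encodes PU.1, rose as well (0.93, adjusted p = 0.0199). In 5-FU, 5-FU+ICB and cisplatin+ICB 3, 9 and 5 of the 12 were called higher, and 0 in cisplatin. For 5-FU+ICB the count was 9 without replicate 2 and 10 without replicate 5, and for cisplatin+ICB it was 8 without replicate 1.

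The ligands were counted as IgG heavy chain transcripts. After ICB 0 of 4 genes were called by edgeR, 1 had an unadjusted p under 0.05 and DESeq2 called 1. After 5-FU 0 of 4 were called by edgeR, 1 had an unadjusted p under 0.05 and DESeq2 called Ighg3 (log2 fold change 3.39, adjusted p = 0.0229). After cisplatin 0 of 4 were called by either tool, with 0 at an unadjusted p under 0.05. After 5-FU+ICB 4 of 4 were called higher by edgeR and 2 by DESeq2, their sum ran from 4.93 to 1283 CPM, and Ighg1 was 74.8, 4.40, 7.82, 5.66 and 1162 CPM, with the top value in replicate 5. Without that tumor 1 of 4 was called (list median 1.73), and without replicate 2, 4 of 4 were (list median 4.94). In cisplatin+ICB 1 of 4 was called, and 4 of 4 without its replicate 1. Genes of antibody-making cells were counted in the same comparisons, and after 5-FU+ICB 4 of 5 B cell and 2 of 3 plasma cell genes were called higher by edgeR (1 and 0 by DESeq2), and 3 and 0 without replicate 5. After cisplatin+ICB 0 of 5 and 0 of 3 were called by edgeR. Without its replicate 1, 0 B cell and 2 plasma cell genes were called higher and 1 plasma cell gene lower, against 18.2% and 17.1% of all genes. The summed B cell level ran from 15.4 to 19.7 CPM in PBS and from 17.1 to 839 CPM in 5-FU+ICB, and the plasma cell sum from 115 to 142 CPM and from 85.9 to 932 CPM. Their part in the IgG counts was not tested. The files name Ighg2c, while BALB/c mice carry the Ighg2a allele, so that gene's level is uncertain. Of 11 tested genes for other Fc receptors, 2 were called higher after ICB, Fcrlb (log2 fold change 1.32) and Trim21, which encodes a cytosolic antibody receptor (1.06, adjusted p = 0.000324), and Fcrls was lower (-1.76, adjusted p = 0.0145). Fcgrt, which encodes the neonatal Fc receptor, was not called (0.92, adjusted p = 0.0815). After 5-FU 2 of the 11 were called higher, Trim21 and the IgM receptor gene Fcmr, which was at 4.94 ± 6.96 CPM against 0.107 ± 0.0635 CPM in PBS (adjusted p = 0.0429). After 5-FU+ICB 6 of 11 were called higher (4 by DESeq2), among them Trim21, Fcmr and the IgE receptor genes Fcer1a and Fcer2a, and 8 were without replicate 2 and 5 without replicate 5. After cisplatin+ICB Trim21 (0.70, adjusted p = 0.0255) was called higher and Fcrls lower (-2.31, adjusted p = 0.0233), against 1.4% of all genes called lower, and without replicate 1 the counts were 2 and 1. After cisplatin 0 of 11 were called by edgeR or DESeq2, with 2 at an unadjusted p under 0.05.

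Cell marker lists were counted in the same fits, to be read against the 19%, 9.98%, 0%, 21.9% and 4.7% of all genes called higher after ICB, 5-FU, cisplatin, 5-FU+ICB and cisplatin+ICB. The summed level of 8 macrophage genes ran from 1627 to 2389 CPM in PBS, 3525 to 9790.2 CPM in ICB, 2235 to 8069 CPM in 5-FU, 974 to 2314 CPM in cisplatin, 1831 to 8478 CPM in 5-FU+ICB and 2088 to 3939.6 CPM in cisplatin+ICB. In ICB against PBS 8 of 8 of these genes were called higher (median log2 fold change 1.79). Of the other carriers, 2 of 4 monocyte, 2 of 5 neutrophil, 2 of 4 natural killer, 2 of 5 dendritic cell and 2 of 5 mast cell genes were called higher and 0 of 5 B cell genes were (0 at an unadjusted p under 0.05, DESeq2 0, median 1.40), while 4 of 4 T cell and 2 of 5 endothelial genes were. After 5-FU+ICB 6 of 8 macrophage, 2 of 4 monocyte, 1 of 5 neutrophil, 3 of 4 natural killer, 3 of 5 dendritic cell, 4 of 5 mast cell, 5 of 5 endothelial and 4 of 4 T cell genes were called higher. Without replicate 2 the macrophage and mast cell counts were 8 and 5, and without replicate 5 they were 6 and 5, with 1 monocyte, 2 natural killer and 2 dendritic cell genes. After cisplatin+ICB, where Fcgr4 alone of the members was called, 4 of 5 neutrophil, 2 of 8 macrophage, 2 of 4 monocyte, 1 of 5 dendritic cell and 3 of 4 T cell genes were called higher, and 0 natural killer, mast cell, B cell and endothelial genes were (2, 3, 1 and 0 at an unadjusted p under 0.05, DESeq2 1, 0, 0 and 0). Without replicate 1 of that group the macrophage, natural killer, dendritic cell, mast cell and endothelial counts were 4, 2, 2, 1 and 1, with 4 of 5 neutrophil genes. After 5-FU 4 of 8 macrophage, 1 of 5 neutrophil, 2 of 4 natural killer, 3 of 5 mast cell, 1 of 5 endothelial and 3 of 4 T cell genes were called higher and 0 monocyte, dendritic cell, B cell and plasma cell genes were (0, 0, 3 and 1 at an unadjusted p under 0.05, DESeq2 0, 0, 1 and 0), and after cisplatin 0 of any of these lists by edgeR or DESeq2 (2 monocyte and 1 neutrophil gene at an unadjusted p under 0.05). Of the 3 mesothelial genes tested, Wt1 was called higher after ICB, 5-FU, 5-FU+ICB and cisplatin+ICB, and after 5-FU+ICB Krt19 was called higher and Msln lower (-2.28, adjusted p = 0.0238). Without 5-FU+ICB replicate 5, 1 of these 3 was called higher and 1 lower. In PBS, Wt1 was low, and the summed level of the 6 mesothelial genes, nearly all Msln, was 272 to 358 CPM. This sum was 54.6 to 217 CPM in ICB, 46.6 to 177 CPM in 5-FU and 37.4 to 168 CPM in 5-FU+ICB, all below PBS. It was 212 to 308 CPM in cisplatin and 132 to 655 CPM in cisplatin+ICB. None of the macrophage genes was at 0 in any group. Ptprc was 92.2, 105, 74.9 and 96.0 CPM in PBS and 314, 419, 442, 245 and 401 CPM in ICB tumors (log2 fold change 2.00, adjusted p = 0.00231). The part of these cells in the receptor changes was not tested directly, but the fits were repeated with each tumor scaled to Ptprc or to the 8 macrophage genes.

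On these scales the median of all genes in ICB against PBS shifted by -1.96 (Ptprc) and -1.77 (macrophage genes), so a member now reads relative to those cells' genes. Fcgr4 stayed called in ICB against PBS, with log2 fold changes of 1.06 (adjusted p = 0.0458, Ptprc) and 1.19 (adjusted p = 0.00558, macrophage genes), and was the only member to do so. Of all genes, 1.55% and 1.7% were called higher on these scales, and 13729 and 13254 of 17916 were called in either direction. The Ptprc scale rests on 1 gene, and neither scale was refitted without 1 tumor. Fcgr2b, Fcgr3 and Syk lay between 0.02 and 0.29 with adjusted p from 0.430 to 0.946. Fcgr1 (-0.49 and -0.35) and Fcer1g (-0.47 and -0.35) turned below 0, with adjusted p from 0.216 to 0.346. In 5-FU+ICB Fcer1g was called lower relative to Ptprc (-0.84, adjusted p = 0.0407), as were 61.6% of all genes, whose median there was -1.58, below the value of Fcer1g. In the same comparison Fcgr4 was not called on either scale (0.55 and 0.80, adjusted p = 0.288 and 0.0596), and no member was called on the macrophage scale, where 53.3% of all genes were. In cisplatin+ICB and 5-FU 0 of 6 were called on either scale, against 36.8% (Ptprc) and 0.241% (macrophage genes) of all genes in cisplatin+ICB and 2.68% and 10.4% in 5-FU.

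**Figure D4:**
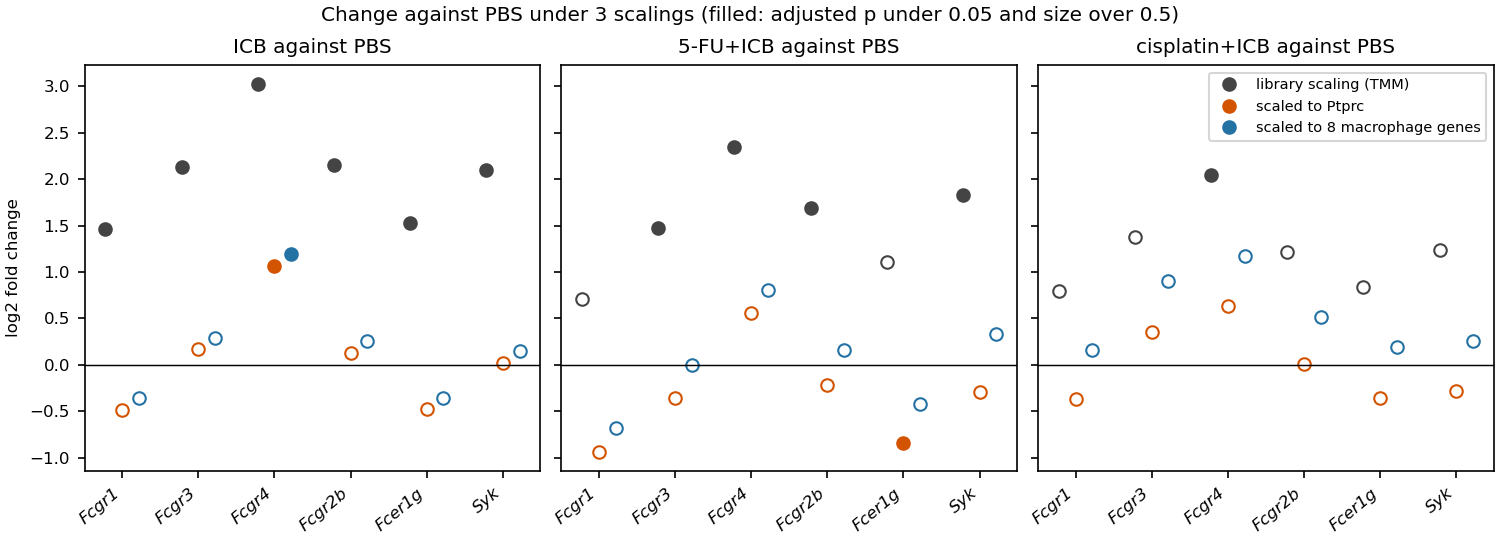
Log2 fold change against PBS (y axis) for ICB, 5-FU+ICB and cisplatin+ICB under library scaling and after scaling each tumor to Ptprc or to 8 macrophage genes, with filled points for calls. Fcgr4 keeps a call in ICB on all 3 scales (3.03, 1.06 and 1.19), whereas in ICB Fcgr1 and Fcer1g turn below 0 on both cell-gene scales. In ICB 75.1% (Ptprc) and 72.3% (macrophage genes) of all genes are called lower on those scales.

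Across the 28 tumors the members' log2 CPM values ran together, with Pearson's r from 0.64 to 0.94 over the 15 pairs and from 0.32 to 0.90 after the group means were removed. Their r with the leukocyte gene Ptprc was of like size, from 0.68 to 0.95, and from 0.42 to 0.90 after that removal. Syk was closer to Ptprc (0.95) than to any other member (at most 0.83). These are descriptions over tumors that share treatment groups and normalization. Among the 3 genes most like each member, out of 17493 genes, were Lgmn (0.91) and Lair1 (0.89) for Fcgr1, Tbxas1 (0.95), H2-DMa (0.95) and Ticam2 (0.95) for Fcgr2b, and Lair1 (0.97), Slc31a2 (0.96) and Gm21188 (0.95) for Fcgr3. For Fcgr4 they included Il18bp (0.96) and Fgl2 (0.96), for Fcer1g they were Efhd2 (0.97), Aif1 (0.97) and P2rx4 (0.97), and for Syk Slc8b1 (0.99), Nckap1l (0.98) and Pik3cd (0.98). Lair1, which encodes an inhibitory collagen receptor, was among the first 3 for Fcgr1 and Fcgr3.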

How the data were processed

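RNA from 28 whole AB1-HA tumors had been sequenced as 100-base single-end reads. Per the labels, the authors demultiplexed with bcl2fastq 2.20.0.422 and quantified transcripts with kallisto 0.46.0 against GRCm38/mm10. They deposited 2 tables of estimated counts per gene (expected counts, 41.1% of the member values not whole), each with PBS and ICB tumors. Whether reads were counted by strand is not given in the sources used here. The reference is C57BL/6J, the mice BALB/c. Every table column was mapped to a sample through its title.

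Counts were rounded and tested with edgeR 4.0.16 (quasi-likelihood, TMM, filterByExpr) in R 4.3.3, 1 fit per table over its 4 groups. ICB was compared with PBS in the 5-FU table. Genes were called at a Benjamini-Hochberg adjusted p under 0.05 and a log2 fold change over 0.5 in size. DESeq2 1.42.0 was an alternative. Levels are TMM-scaled CPM over the joined 28 tumors, log2 CPM with a prior count of 2. Ratios used counts plus 0.5. The labels name separate tumors and do not state the mice, so p-values measure the spread between these tumors.

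The code was tested on simulated data. The members, gene lists, tests and alternatives were chosen with earlier results of these data known. The named genes were the 6 members, any gene of the lists, and for each member the 3 genes with the highest Pearson r. Lists covered IgG ligands, other Fc receptors, ITAM adaptors and related myeloid receptors, Src kinases, Syk effectors, ITIM phosphatases, the oxidase, interferon and myeloid regulators, and cell type markers. A few genes under this rule are not reported here.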

Additional observations from a re-analysis of the deposited data

Results flagged for a closer look

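Of 60 sets of 4 or 5 tumors tested for a tumor far from the others of its group (log2 CPM of the members and the log2 ratios), 3 were flagged, and chance flags about 1 in 20. Fcgr3 in PBS replicate 2 was at 7.57 log2 CPM, above 6.04 to 6.27 in the other PBS tumors. Fcgr3 in ICB replicate 4 was at 7.82 log2 CPM, below 8.75 to 9.04 in the other ICB tumors. Syk in 5-FU+ICB replicate 2 was at 5.33 log2 CPM, below 7.00 to 7.57 in the rest of the group.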

How the results depend on the processing

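Of the member counts, those of ICB against PBS (6), 5-FU against PBS (1), 5-FU+ICB against PBS (4) and cisplatin+ICB against PBS (1) moved with the setting. The count for ICB was 1 when scaled to Ptprc and 1 when scaled to macrophage genes. For 5-FU it was 3 with DESeq2, 2 with a minimum of 10 counts in every tumor (12.1% of all genes called higher), 3 with a model of the 2 groups alone (12.8%) and 0 on either cell-gene scale. For 5-FU+ICB it was 1 scaled to Ptprc, where Fcer1g was called lower and none of the 4 kept its call, and 0 scaled to macrophage genes. For cisplatin+ICB it was 5 with DESeq2 and 0 on either cell-gene scale or with a model of the 2 groups alone, which called 0 of 16734 genes. DESeq2 called 3 members in cisplatin+ICB against cisplatin and 2 terms of the 5-FU interaction. Leaving out 1 tumor gave 0 to 2 calls in 5-FU, 0 to 5 in cisplatin+ICB, 0 to 1 in 5-FU+ICB against 5-FU and 0 to 2 in cisplatin+ICB against cisplatin, while over all genes the calls ran from 1436 to 4741, 0 to 6277, 0 to 1948 and 0 to 2114 in these comparisons. DESeq2 size factors, a model of all 6 groups, no filter and no fold threshold moved none of the counts by over 1.5 times. The cause was not tested, except that the cell-gene scales shift every gene by construction.

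Same-numbered tumors did not deviate together in every pair of any comparison (r from -0.63 to 0.66). In cisplatin+ICB against PBS r was 0.30, 0.47 and 0.40 for replicates 1, 3 and 4 and -0.46 for replicate 2. The labels give only a number, and whether it marks a pairing was not tested. With the replicate number as a replicate block, the count for cisplatin+ICB against PBS was 0 (Fcgr4, adjusted p = 0.0622) while calls over all genes went from 1087 to 95, and no other call of a member changed.

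Scaling to Ptprc shifted the median of all genes by -1.96 (ICB against PBS) to 1.23 (interaction of 5-FU with ICB). With levels so scaled, 31 of 66 member log2 values changed sign. In ICB against PBS they were -0.49 for Fcgr1 and -0.47 for Fcer1g. In 5-FU against PBS they were -0.41 for Fcgr1, -0.37 for Fcgr3, -0.59 for Fcer1g and -0.15 for Syk. In cisplatin against PBS they were -0.015 for Fcgr2b, -0.15 for Fcgr3 and -0.13 for Syk. In 5-FU+ICB against PBS they were -0.94 for Fcgr1, -0.21 for Fcgr2b, -0.36 for Fcgr3, -0.84 for Fcer1g and -0.29 for Syk. In cisplatin+ICB against PBS they were -0.37 for Fcgr1, -0.36 for Fcer1g and -0.28 for Syk. In cisplatin+ICB against ICB they were 0.12 for Fcgr1, 0.18 for Fcgr3 and 0.12 for Fcer1g. In 5-FU+ICB against 5-FU they were -0.53 for Fcgr1, -0.36 for Fcgr2b, -0.21 for Fcgr4, -0.25 for Fcer1g and -0.14 for Syk. In cisplatin+ICB against cisplatin they were -0.0051 for Fcgr1 and -0.16 for Syk. In the interaction of 5-FU with ICB they were 0.22 for Fcer1g. In the interaction of cisplatin with ICB they were 0.48 for Fcgr1, 0.33 for Fcgr3 and 0.60 for Fcer1g.

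Scaling to the 8 macrophage genes shifted the median of all genes by -1.77 (ICB against PBS) to 1.40 (interaction of 5-FU with ICB). With levels so scaled, 24 of 66 member log2 values changed sign. In ICB against PBS they were -0.35 for Fcgr1 and -0.35 for Fcer1g. In 5-FU against PBS they were -0.37 for Fcgr1, -0.31 for Fcgr3, -0.54 for Fcer1g and -0.068 for Syk. In 5-FU+ICB against PBS they were -0.68 for Fcgr1 and -0.42 for Fcer1g. In 5-FU+ICB against ICB they were 0.18 for Syk. In cisplatin+ICB against ICB they were 0.51 for Fcgr1, 0.26 for Fcgr2b, 0.61 for Fcgr3, 0.54 for Fcer1g and 0.10 for Syk, against a median of 1.12 over all genes. In 5-FU+ICB against 5-FU they were -0.31 for Fcgr1, -0.057 for Fcgr2b and -0.015 for Fcgr4. In the interaction of 5-FU with ICB they were 0.045 for Fcgr1, 0.020 for Fcgr3, 0.48 for Fcer1g and 0.25 for Syk. In the interaction of cisplatin with ICB they were 0.56 for Fcgr1, 0.47 for Fcgr3 and 0.71 for Fcer1g.

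Without 1 tumor, 7 of 720 member values and 18 of 249 ratio differences changed sign, none of them past a threshold. Fcgr1 in cisplatin against PBS ran from -0.47 to 0.10. Syk in cisplatin against PBS ran from -0.046 to 0.29. Fcgr3 in cisplatin against PBS ran from -0.17 to 0.70. Fcgr1 in 5-FU+ICB against 5-FU ran from -0.087 to 0.43. Fcgr4 in 5-FU+ICB against 5-FU ran from -0.023 to 1.00. The log2 ratio of Fcgr3 to Fcgr2b in cisplatin against PBS ran from -0.20 to 0.080. The log2 ratio of Fcgr3 to Fcgr2b in 5-FU+ICB against PBS ran from -0.20 to 0.055. For Fcgr4 the log2 ratio to Fcgr2b in cisplatin against PBS ran from -0.16 to 0.39. For Fcgr4 the log2 ratio to Fcgr2b in 5-FU+ICB against 5-FU ran from -0.11 to 0.15. For Fcgr1 the log2 ratio to Fcgr2b in cisplatin+ICB against cisplatin ran from -0.34 to 0.21. The log2 ratio of Fcgr3 to Fcgr2b in cisplatin+ICB against PBS ran from -0.022 to 0.37. The log2 ratio of Fcgr3 to Fcgr2b in cisplatin+ICB against ICB ran from -0.15 to 0.25. The ratios kept their direction under pseudocounts of 0.1 and 2. Member counts were 358 or higher in every tumor, and groups held 4 or 5 tumors.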
